A study of Homo sapiens with 2 samples.

Results

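The zinc finger clusters of chromosome 19 are 6 intervals in which genes for KRAB zinc finger proteins lie side by side. TARBP2-bound regions were assigned to them by their midpoint on hg19, and 205 of the 944 regions listed on chromosome 19 fell inside. This was 0.876% of the 23412 regions of the whole list. The intervals ran, in chromosome order, from 9200000 to 10000000 (cluster 1), 11600000 to 12700000 (cluster 2), 19800000 to 24600000 (cluster 3), 34900000 to 38400000 (cluster 4), 44200000 to 45000000 (cluster 5) and 52300000 to 59128983 (cluster 6). They made up 17.8 Mb, or 30.2% of the chromosome, and held 21.7% of its regions.

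KRAB zinc finger genes encode DNA-binding proteins with long arrays of C2H2 fingers. The KRAB domain recruits the corepressor KAP1 (TRIM28), and many members bind and silence transposable elements. The family grew by tandem duplication, so neighbouring genes often resemble each other. TARBP2 binds double-stranded RNA. It works with the nuclease Dicer in microRNA processing and is also known to bind structured stretches of messenger RNA.

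All regions came from 1 group of 2 replicates of MDA-LM2, a derivative of the human breast cancer line MDA-MB-231 with high capacity for lung metastasis. The cells carried a transiently transfected, myc-tagged TARBP2 vector, and RNA was cross-linked 48 hours later. It was then recovered by HITS-CLIP, in which RNA bound to the tagged protein is co-purified with an anti-myc antibody and sequenced. The protein mapped is therefore the introduced, tagged one. The 2 samples include no control group, input or mock precipitation, so none was compared here. The replicates entered 1 list with a score of 1 for every region. A region is thus present or absent, its depth is unknown, and no value has a replicate error. Intervals below are 95% exact binomial intervals for shares and exact Poisson intervals for densities. They cover counting error only and treat regions as independent. Regions lay close together, so the intervals are too narrow. No difference below was tested, because 1 list gives no replicates to test over.

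The label of the clusters could be set beside gene names only, since the gene annotation at hand is on GRCh38 and positions were not carried between builds. In GENCODE 29, 254 of the 1388 protein-coding genes of chromosome 19 (18.3%) had names beginning with ZNF or ZFP, after genes with clone names were left out. They were 47.4% of the 536 such genes on chromosomes 1 to 22 and X. Of the 254 genes, 210 lay in 18 runs of at least 5 neighbours with no other of the 1388 genes between them. The longest runs went from ZNF101 to ZNF254 (37 genes), from ZNF823 to ZNF791 (24 genes) and from ZNF283 to ZNF180 (20 genes). As background, the intervals are not made of zinc finger genes alone. Genes of leukocyte immunoglobulin-like receptors, for example, lie between zinc finger runs toward the end of the long arm. Which run belongs to which cluster, and which regions lie in a zinc finger gene, was not determined.

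Regions were sparser in the clusters than on the rest of chromosome 19. The clusters held 11.5 regions per Mb (9.98 to 13.2), against 17.9 (16.6 to 19.2) on the remaining 41.3 Mb, a ratio of 0.643 (0.548 to 0.751). The remainder includes the stretch from 24600001 to 34900000, which spans the centromere and held 16 regions, or 1.55 per Mb. Without that stretch the rest held 23.3 regions per Mb, and the ratio was 0.493 (0.420 to 0.576). When neighbours on 1 strand with gaps of at most 10 kb were merged into a domain and counted once, the clusters held 7.29 domains per Mb (6.09 to 8.66), against 8.98 (8.09 to 9.95) on the rest, a ratio of 0.812 (0.660 to 0.994). Set beside the other 22 chromosomes, each taken from its first to its last region, the clusters were dense. Their value was above those of 20 chromosomes and below those of 2, and the 22 ranged from 4.53 to 12.8 regions per Mb with a median of 7.59. These spans take in any centromere between the regions, while the cluster intervals leave out that of chromosome 19, so the measures are unlike. Without cluster 6 the value was 9.55, above that median but below chromosomes 7, 16, 17, 20 and 22.

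The clusters differed among themselves. Cluster 1 had the most regions per Mb (18.8, 10.5 to 30.9, 15 regions), close to cluster 2 (18.2, 11.1 to 28.1, 20 regions). Cluster 6 followed with 14.6 (11.9 to 17.8) and held 100 of the 205 regions. Cluster 3 had 8.54 regions per Mb (6.13 to 11.6, 41 regions) and cluster 4 had 7.43 (4.85 to 10.9, 26 regions). Cluster 5 had the fewest, 3.75 per Mb (0.773 to 11.0), from 3 regions. Most of these intervals overlap, including those of cluster 1 with each of the others, so much of the order is not resolved. The interval of cluster 2 lies above those of clusters 4 and 5. That of cluster 6 lies above those of clusters 3, 4 and 5. Counted as domains the order was another, and every interval overlapped every other. There were 13.6 per Mb in cluster 2 (7.63 to 22.5), 8.75 in cluster 1 (3.52 to 18.0) and 8.35 in cluster 6 (6.32 to 10.8). Clusters 3, 4 and 5 had 5.83 (3.88 to 8.43), 5.71 (3.49 to 8.83) and 3.75 (0.773 to 11.0). Clusters 1 and 2 were above the 17.9 regions per Mb of the whole rest, but below its 23.3 without the stretch over the centromere. The other clusters were below both. The 5 stretches outside the clusters other than the one over the centromere held 17.4 to 50 regions per Mb. The highest of them, between clusters 1 and 2, held 80 regions over 1.6 Mb.

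**Figure D1:**
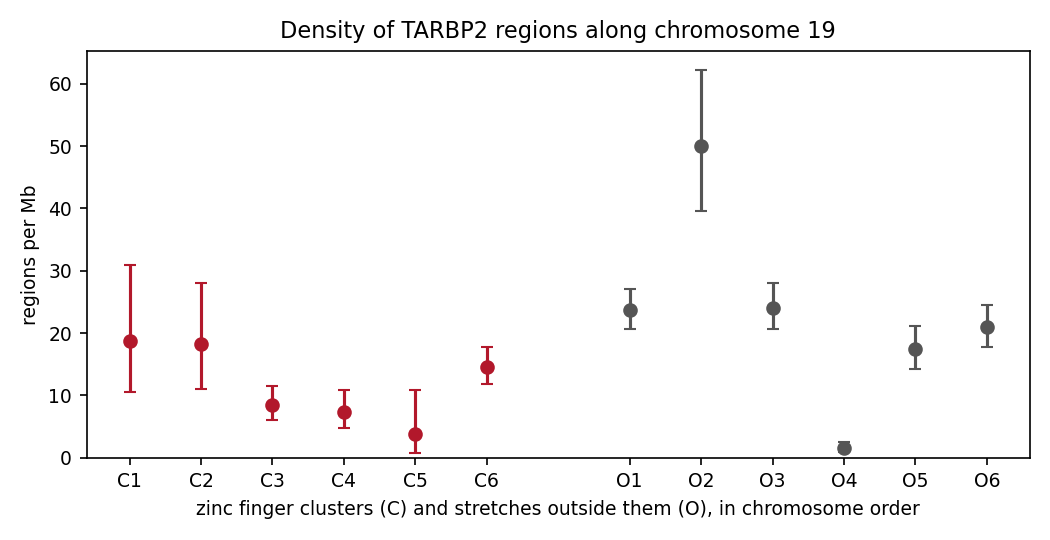
TARBP2 regions per Mb (vertical axis) in the 6 zinc finger clusters (C1 to C6, red) and in the 6 stretches outside them (O1 to O6, grey), each in chromosome order, with 95% exact Poisson intervals. Clusters 3, 4 and 5 lie at 3.75 to 8.54 regions per Mb, and the stretch between clusters 1 and 2 (O2) stands highest at 50.

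Within the clusters, some windows held many regions and many held none. Of 179 windows of 100 kb, 90 held no region (50.3%, 42.7 to 57.8%), against 203 of 413 windows on the rest of the chromosome (49.2%, 44.2 to 54.1%). The near-equal totals rest on the stretch over the centromere, where 94 of 103 windows were empty. In chromosome order, the remaining stretches had 26 of 92, 4 of 16, 21 of 71, 31 of 58 and 27 of 73 windows empty. Among these, only the stretch between clusters 4 and 5 (31 of 58, 53.4%) had a larger share than the clusters. A single region was found in 45 cluster windows, and 39 held 2 to 4. The 5 windows with at least 5 regions together held 56 regions, 27.3% of all. On the rest of the chromosome 50 such windows held 432 regions (58.5%), so crowded windows held a smaller share in the clusters. A pair of windows in cluster 6, from 53100001 to 53200000 and from 58300001 to 58400000, held 18 regions each. In the first of them all 18 were on the minus strand, and in the other all 18 were on the plus strand.

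Long stretches of the clusters held no region. The longest was the first part of cluster 4, 897 kb from 34900001 to 35797154. The next were 561 kb in cluster 6 (55060109 to 55621469) and 545 kb in cluster 3 (22895500 to 23440681). When each cluster was divided into 4 equal parts, part 1 was empty in clusters 1, 4 and 5. Cluster 3 had 14, 13, 3 and 11 regions in its parts, and cluster 6 had 31, 16, 9 and 44. Both of these larger clusters were thus thinnest in part 3.

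**Figure D2:**
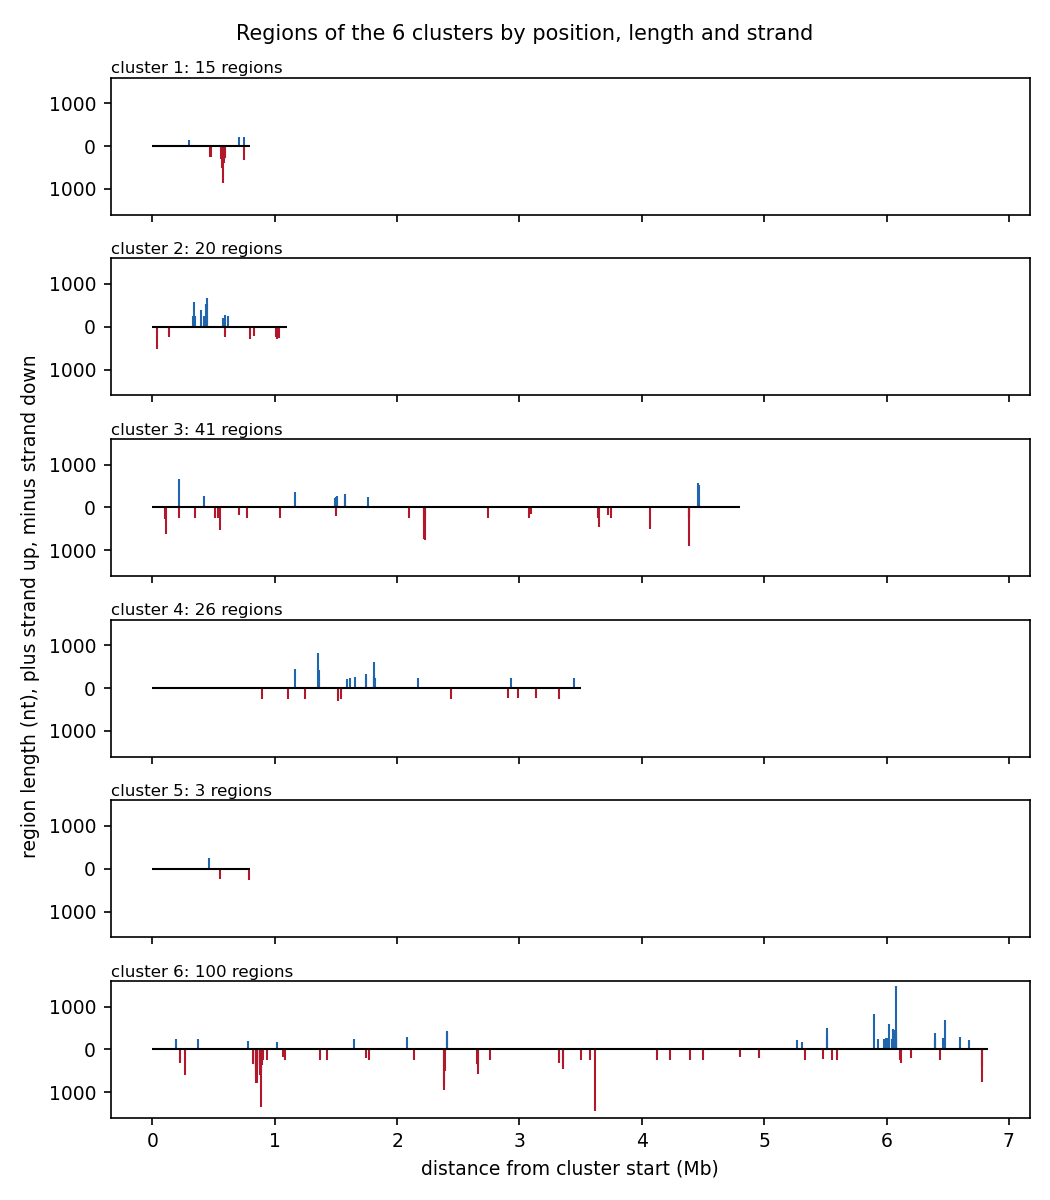
Each of the 205 regions at its distance from the start of its cluster (horizontal axis, Mb), with region length in nt as the height of the line, upward for the plus strand (blue) and downward for the minus strand (red). The minus-strand group near 0.8 Mb and the plus-strand group near 6.0 Mb of cluster 6 hold the 2 windows with 18 regions.

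The regions of the clusters were on the minus strand of the genome in 119 of 205 cases (58.0%, 51.0 to 64.9%), against 420 of 739 on the rest of chromosome 19 (56.8%, 53.2 to 60.4%). The other chromosomes ranged from 51.8 to 68.6% with a median of 60.3%. Without regions of 249 nt, the most common length of the list, the minus share in the clusters was 52.4%. Single clusters had shares on either side of an even split. The minus share was 80.0% in cluster 1 (12 of 15, 51.9 to 95.7%), 68.3% in cluster 3 (28 of 41, 51.9 to 81.9%) and 58.0% in cluster 6 (58 of 100, 47.7 to 67.8%). It was 45.0% in cluster 2 (9 of 20, 23.1 to 68.5%) and 38.5% in cluster 4 (10 of 26, 20.2 to 59.4%). Of the 3 regions of cluster 5, 2 were on the minus strand. Except for clusters 1 and 3, these intervals include an even split. They treat regions as independent, so they cannot show that a cluster leans to a strand. In cluster 1, 8 of the 12 minus-strand regions lay in 1 domain. Over all of chromosome 19, 46.9% of the 254 zinc finger genes named in GENCODE 29 are on the minus strand, against 50.3% of its other protein-coding genes. How many of the 254 lie in the clusters was not determined, so the gene and region shares cover unlike sets.

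Within a cluster the strand changed by position. In part 1 of cluster 6 there were 26 minus-strand and 5 plus-strand regions, in part 2 13 and 3, and in part 3 9 and 0. Part 4 had 10 minus-strand and 34 plus-strand regions. Cluster 2 began with 2 minus-strand regions in part 1, continued with 8 plus-strand regions in part 2 and ended with 5 minus-strand regions in part 4. In cluster 1, 11 successive regions from 9672898 to 9790351 were all on the minus strand.

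Close regions almost always shared a strand. Of 79 pairs of neighbouring regions with a gap of at most 10 kb, 74 were on the same strand (93.7%, 85.8 to 97.9%), against 368 of 389 on the rest of the chromosome (94.6%, 91.9 to 96.6%). The other chromosomes ranged from 68.8 to 89.7%, all below the clusters. That rank rested on cluster 6, where 43 of 43 such pairs shared a strand. Without cluster 6 the share was 86.1%, below chromosomes 3, 4, 7, 11, 16, 17 and 20. It was 8 of 9 pairs in cluster 1, 5 of 6 in cluster 2, 12 of 15 in cluster 3 and 6 of 6 in cluster 4. Cluster 5 had no such pair. With gaps over 10 and up to 100 kb the same-strand share in the clusters was 65.7% (44 of 67, 53.1 to 76.8%), and with longer gaps it was 62.3% (33 of 53, 47.9 to 75.2%). The rest of the chromosome gave 63.1 and 57.3% at these distances. Adjacent zinc finger genes in the GENCODE 29 runs of at least 5 were on the same strand in 121 of 192 pairs (63.0%).

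**Figure D3:**
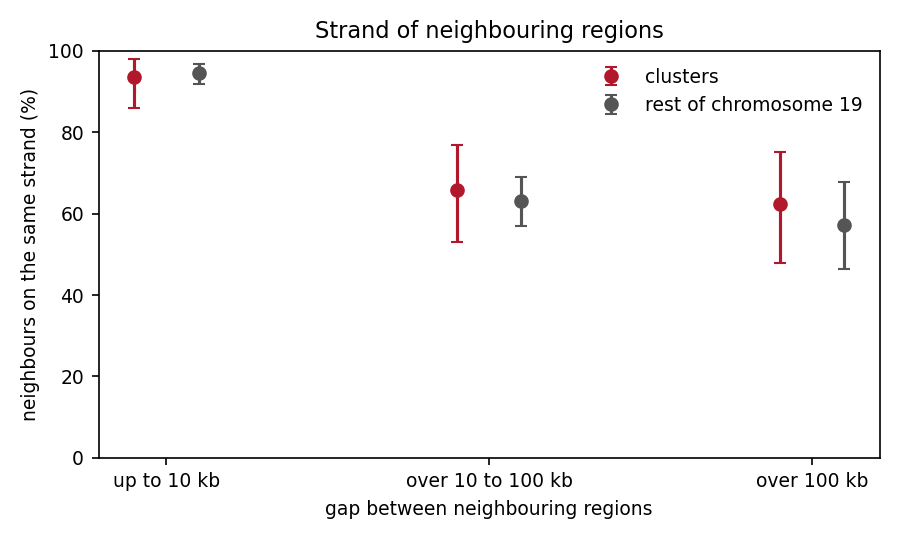
Share of neighbouring regions on the same strand (vertical axis, percent) by the gap between them, in the zinc finger clusters (red) and on the rest of chromosome 19 (grey), with 95% exact binomial intervals. In both, the share is above 90% up to 10 kb and between 57.3 and 65.7% at longer gaps.

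No cluster region overlapped a region on the other strand. This was 0 of 86 plus-strand regions. An approximate upper limit, set at 3 counts of the total and not an exact interval as elsewhere, is 3.49%. The same share was not computed for the rest of chromosome 19 or the whole list, so no difference from them can be read. The nearest approaches were both in cluster 3. A plus-strand region from 20014258 to 20014932 lay 664 nt from a minus-strand region (20013355 to 20013593), and a plus-strand region from 21302859 to 21303113 lay 687 nt from a minus-strand region (21303801 to 21304009).

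Fewer cluster regions had close company than regions elsewhere on the chromosome. A same-strand neighbour within 10 kb was found for 104 of 205 (50.7%, 43.7 to 57.8%), against 497 of 739 on the rest (67.3%, 63.7 to 70.6%). Within 1000 nt the shares were 27.3% (21.3 to 34.0%) in the clusters and 33.0% (29.6 to 36.5%) on the rest. The clusters also held fewer regions per Mb, and the part of this in the difference was not tested. Among the other chromosomes the medians were 41.6% at 10 kb and 17.5% at 1000 nt, and the cluster values exceeded those of 16 and 21 of the 22 chromosomes. By cluster, the share with a neighbour within 10 kb was 66.7% in cluster 1, 45.0% in cluster 2, 48.8% in cluster 3, 34.6% in cluster 4 and 56.0% in cluster 6. None of the 3 regions of cluster 5 had such a neighbour.

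The 205 regions formed 130 domains, of which 101 held a single region. Another 13 domains held 2 regions, 9 held 3, 2 held 4 and 5 held at least 5. These 5 held 43 regions, 21.0% of all, while on the rest of the chromosome 33 of 371 domains held at least 5 regions, together 33.4% of its regions. A single cluster domain reached 10 regions, against 7 on the rest.

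That largest domain was on the plus strand of cluster 6 from 58346977 to 58379596, with 13 regions over 32.6 kb. It held the longest region of all clusters, 1474 nt from 58377443 to 58378916, and its regions were 173 to 5646 nt apart (median gap 1768 nt). Next came a minus-strand pair of domains in the same cluster. The first of the pair had 9 regions over 13.5 kb (53142220 to 53155674), which covered 31.5% of it. The other had 8 regions over 16.3 kb (53175584 to 53191855), and 7 of these were longer than 300 nt. In cluster 1 a minus-strand domain of 8 regions spanned 18.7 kb (9771630 to 9790351), out of that cluster's 15 regions. The last of the 5 was again on the plus strand of cluster 6, 5 regions over 10.7 kb (58295906 to 58306624) with lengths of 247 to 271 nt and thus no long region. No region of the opposite strand lay within any of these 5 domains.

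The other clusters had smaller domains. The largest in cluster 3 held 4 minus-strand regions (22016636 to 22031551), of which 3 were longer than 300 nt. The largest in cluster 4 held 4 plus-strand regions (36707408 to 36715408), with a longest region of 612 nt. In cluster 2 the largest held 3 plus-strand regions (12037838 to 12046101), with lengths of 526 to 684 nt. One domain of cluster 3 was compact, with 3 minus-strand regions that covered 59.2% of 2.39 kb (24183472 to 24185858).

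Of the 5 domains with at least 5 regions, the 4 that lay in cluster 6 were within its 2 longest runs of successive regions on 1 strand. A run of 23 plus-strand regions extended over 181 kb from 58198961 to 58379596, and a run of 20 minus-strand regions over 113 kb from 53121157 to 53234385. Together they held 43 regions (21.0% of the cluster regions) in 1.65% of the cluster length. Regions of the plus-strand run had a median length of 280 nt and 9 of 23 exceeded 300 nt. Regions of the minus-strand run had a median of 384 nt and 14 of 20 exceeded 300 nt. Runs as long were also found on the rest of the chromosome, where the longest held 29 regions over 660 kb on the minus strand.

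**Figure D4:**
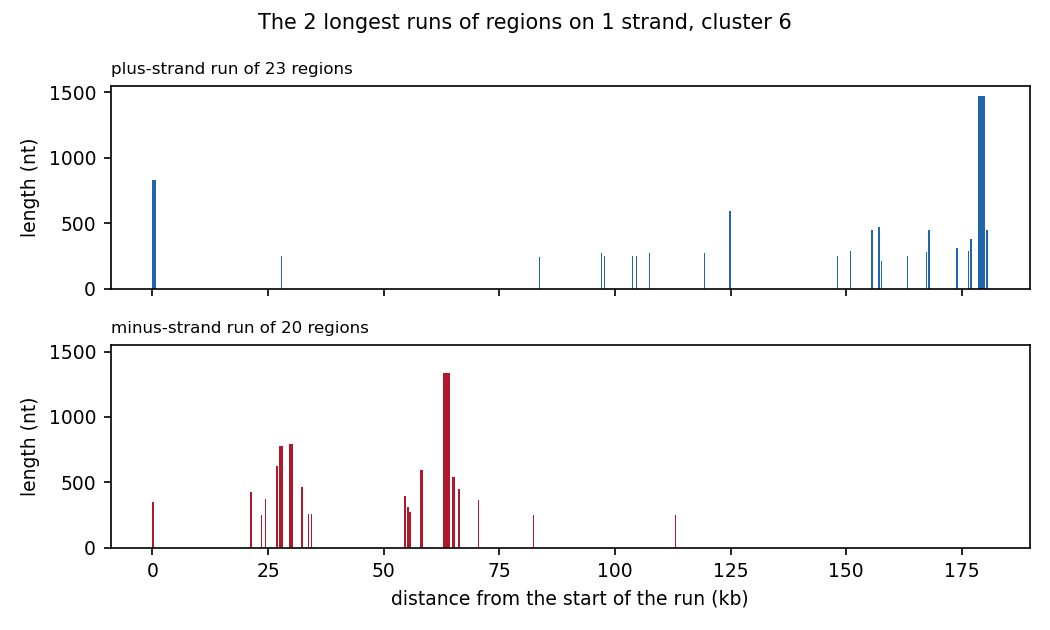
The regions of the longest plus-strand run (blue, 23 regions) and the longest minus-strand run (red, 20 regions), both in cluster 6, at their distance from the start of the run (horizontal axis, kb), with region length as bar height (nt) and bar width to scale. The plus-strand regions are closest together at the far end of the run. Most minus-strand regions fall into 2 groups, with single regions before and after them.

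Cluster regions were short compared with those on the rest of chromosome 19 and of a length common on other chromosomes. Their quartiles were 248, 252 and 391 nt, and the extremes were 145 and 1474 nt. The median on the rest was 288 nt, with an upper quartile of 467 nt, and over the other chromosomes medians ranged from 249 to 267 nt. Regions longer than 300 nt were 72 of 205 in the clusters (35.1%, 28.6 to 42.1%), against 357 of 739 on the rest (48.3%, 44.7 to 52.0%). Other chromosomes ranged from 18.8 to 40.7%. In cluster 6 the median was 270.5 nt, and 43.0% of regions exceeded 300 nt (33.1 to 53.3%), an interval that includes the share on the rest. Without cluster 6 the median was 249 nt and 27.6% exceeded 300 nt. In total the 205 regions covered 72081 nt, or 0.404% of the cluster length, against 0.708% on the rest.

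Regions with a close neighbour were the longer ones in both parts of the chromosome. Among regions with a same-strand neighbour within 10 kb, 57 of 104 exceeded 300 nt in the clusters (54.8%, 44.7 to 64.6%), against 304 of 497 on the rest (61.2%, 56.7 to 65.5%). Among regions without one, 15 of 101 did so in the clusters (14.9%, 8.56 to 23.3%), against 53 of 242 on the rest (21.9%, 16.9 to 27.6%). Within each of these classes the intervals overlap. The median length with a neighbour was 328 nt in the clusters and 356 nt on the rest, and without one it was 249 nt in both.

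The exact length of 249 nt, the most common of the whole list, was that of 37 cluster regions (18.0%, 13.04 to 24.0%) and 94 on the rest (12.7%, 10.4 to 15.3%). Other chromosomes ranged from 14.5 to 26.5%. In the clusters this length was found for 31 of 119 minus-strand regions (26.1%, 18.4 to 34.9%) and 6 of 86 plus-strand regions (6.98%, 2.60 to 14.6%). The rest of the chromosome had 18.3 and 5.33% on these strands. Other chromosomes ranged from 19.9 to 35.7% on the minus strand and from 5.07 to 15.9% on the plus strand, so the difference was not particular to chromosome 19. In the 2 longest runs of cluster 6, 2 of 43 regions had this length, both on the plus strand.

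**Figure D5:**
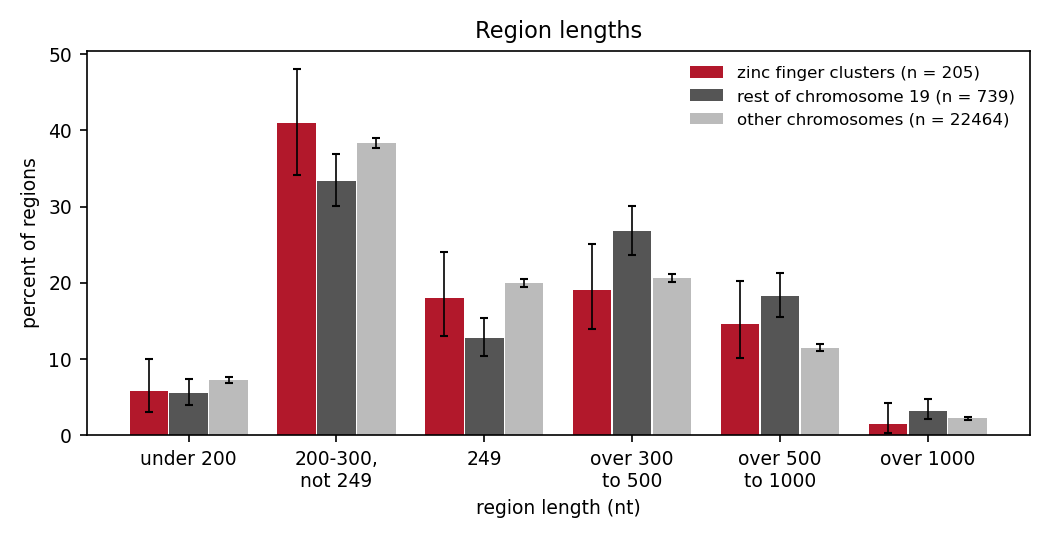
Share of regions (vertical axis, percent) in 6 length classes for the zinc finger clusters (red), the rest of chromosome 19 (dark grey) and the other chromosomes (light grey), with 95% exact binomial intervals. The clusters have 19.02% of regions at over 300 and up to 500 nt, against 26.8% on the rest of chromosome 19 and 20.7% on the other chromosomes.

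Only 3 cluster regions exceeded 1000 nt (1.46%, 0.303 to 4.22%), against 24 on the rest (3.25%, 2.09 to 4.79%). All 3 lay in cluster 6. Beside the longest, they were a minus-strand region of 1447 nt (55915570 to 55917016) whose nearest same-strand neighbour was 39496 nt away, and a minus-strand region of 1337 nt (53184069 to 53185405) in the domain of 8. The next in length were 947 nt (54679810 to 54680756) in cluster 6, 910 nt (24183865 to 24184774) in cluster 3 and 855 nt (9774166 to 9775020) in cluster 1. The remainder of the 10 longest were regions of 838 nt (54680876 to 54681713), 827 nt (58198961 to 58199787) and 793 nt (53150723 to 53151515) in cluster 6, and of 830 nt (36253264 to 36254093) in cluster 4. The longest region of cluster 2 was 684 nt (12043122 to 12043805). In cluster 5 it was 253 nt (44992436 to 44992688).

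Gaps between same-strand neighbours ranged widely. Of 193 such pairs within a cluster, 31 were at most 1000 nt apart, 44 were over 1000 nt and up to 10 kb, 49 were up to 100 kb and 69 were farther apart, with a median of 26993 nt. The closest pair was on the minus strand of cluster 6, where the 947 nt and 838 nt regions named above were separated by 119 nt. No same-strand pair of the whole list was closer than 101 nt. In 9 pairs the gap was under 200 nt.

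Each region name holds a number, and numbers increase by position on a strand but skip values, so they count how many numbered stretches lay between the listed ones. From the first to the last region of each cluster and strand the names spanned 904 numbers, of which the list held 22.7% (19.98 to 25.5%). The rest of chromosome 19, counted by stretch and strand, spanned 3297 numbers with 22.4% listed (21.0 to 23.9%). The other chromosomes, counted whole, ranged from 9.70 to 20.3%, and chromosome 19 counted whole had 21.4%. Per Mb the clusters spanned 50.7 numbers and the rest 79.8. These values count numbers between listed regions only but divide by the whole length, so they also fall where listed regions are few. They are therefore no separate measure of how sparse the numbers were. The shares listed had overlapping intervals. A span that begins and ends with a listed number gives a share that is too high where regions are few.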

How the data were processed

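Regions bound by TARBP2 were taken from 1 deposited list for both replicates. The submitters' processing notes name Bowtie and hg19. How regions were called and filtered, and how multi-mapping reads were handled, is not stated in the labels, so how reads from near-identical zinc finger genes were placed is unknown. The deposited score was 1 for every region. Deposited starts are 0-based and are printed 1-based.

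Members were the regions of chromosome 19 with midpoints in the 6 intervals. The members and measures were chosen with earlier results of these data known. Domains joined same-strand regions at most 10 kb apart. Windows of 100 kb began at each interval's start. Named were the longest region and largest domain of each cluster, the 10 longest regions, the 5 largest domains, the closest pair, opposite-strand overlaps and the 3 longest empty stretches. The longest runs on 1 strand, the compact domain of cluster 3, the windows of 18 regions and the nearest opposite-strand pairs were chosen with their values in view. The ratio to the rest of chromosome 19 and the share over 300 nt were added after the data were examined. Names and strands of genes came from GENCODE 29 on GRCh38, without positions. Region sequences and genes were not analysed here, since no hg19 genome or gene models were used. Neighbour gaps and domains were tested on simulated data of 4000 regions, and 0 differed from a brute-force search. Values were computed in Python 3.11.15 with pandas 2.3.3, scipy 1.17.1 and numpy 2.4.6, and drawn with matplotlib 3.10.9.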

Additional observations from a re-analysis of the deposited data

How the results depend on the processing

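Of 161 values of 12 results under other settings, 133 stayed within the 95% interval of the reported value, or within 1.5 times for the number of domains. Membership by whole containment or by any overlap gave the same 205 regions, and no value moved out when edges were shifted by 100 kb, inward (193 regions) or outward (239 regions). The ratio of regions per Mb in the clusters to the rest of chromosome 19 stayed below 1 throughout. It was 0.679 without domains of at least 10 regions in either, 0.493 without the stretch over the centromere, 0.502 with regions under the list's median length left out, 0.533 without cluster 6, and 0.812 with domains counted once (0.624 without the centromeric stretch as well). Without regions of 249 nt there were 9.42 regions per Mb, a median of 274.5 nt, 58.7% empty windows, 18.8% of numbers listed and 42.9% of regions over 300 nt. With regions under that median left out these were 5.72, 392.5 nt, 74.9%, 14.1% and 70.6%, with 58 domains, 58.8% with a neighbour within 10 kb and 100% of close pairs on the same strand. Both filters move these values by leaving out regions. Without cluster 6 there were 9.55 regions per Mb, 19.05% with a neighbour within 1000 nt, 27.6% over 300 nt and 73 domains. Without the 2 longest runs, chosen after the data were seen, there were 9.09 regions per Mb, 18.5% with a neighbour within 1000 nt and 41.4% within 10 kb, with a ratio of 0.508. The runs were left out of the clusters alone, so a fall in these values was fixed by the choice. Domains counted once gave 7.29 per Mb. Empty windows were 69.5% at 50 kb and 28.6% at 200 kb, by construction. The share at 249 nt was not computed with the length filters, which fix it at 0. No paired analysis was possible because both replicates share 1 list without replicate columns, which also prevents leaving either of them out.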
